A study of Homo sapiens with 7 samples.

Results

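The aminoacyl-tRNA synthetase genes were followed in open chromatin of human neurons under mitochondrial stress. They were taken as a list of 35 genes, 19 for cytosolic enzymes and 16 for mitochondrial ones, whose symbols end in 2. All 35 matched a gene of the annotation, which holds 19974 protein-coding genes on chromosomes 1 to 22 and X. The cells were LUHMES, an established human mesencephalic line of wild-type genotype, differentiated for 6 days and labelled as dopaminergic neurons. Stressed cultures were kept for 8 hours in 25 µM antimycin A, which blocks respiratory complex III, and 10 µM oligomycin, which blocks ATP synthase. Vehicle cultures received DMSO. ATAC-seq, in which a transposase cuts accessible DNA, gave 4 stressed libraries, from differentiations 6, 7, 8 and 9, and 3 vehicle libraries, from differentiations 6, 7 and 8. The labels call the differentiations independent batches of 1 cell line, so the spread between libraries is that between cultures and not between donors.

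Synthetases join amino acids to their matching tRNAs, the step that links the genetic code to protein synthesis. Most charge the tRNAs of a single amino acid, while EPRS1 charges those of both glutamate and proline. Cytosolic and mitochondrial ribosomes draw on separate charged tRNA pools, and most amino acids have an enzyme for each compartment. GARS1 and KARS1, the glycine and lysine enzymes, serve both compartments from 1 gene. In many cell types the transcription factor ATF4, an effector of the integrated stress response, binds C/EBP-ATF response elements at cytosolic synthetase genes and raises their transcription when amino acids run short or mitochondria fail.

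The sequences that bear on this are the matches to the core of that element, TGATGNAA, in the synthetase promoters. They are from RefSeq on build GRCh38.p14, read 5′ to 3′ along the gene's strand, with the matched bases in capitals. A promoter here is the 300 bases from 250 before an annotated start site to 50 after it. RefSeq promoters were matched for 30 of the 35 genes, 39 promoters in all. YARS1, LARS1, VARS1, VARS2 and AARS2 were not matched.
TARS1, chr5:33440956-33440985, plus strand: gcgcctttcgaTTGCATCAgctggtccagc
GARS1, chr7:30594834-30594863, plus strand: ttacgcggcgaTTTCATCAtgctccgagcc
CARS1, chr11:3057407-3057436, minus strand: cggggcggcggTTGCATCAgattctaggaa
IARS1, chr9:92293692-92293721, minus strand: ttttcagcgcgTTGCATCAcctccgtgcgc
MARS1, chr12:57488053-57488082, plus strand: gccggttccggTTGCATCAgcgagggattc
AARS1, chr16:70289675-70289704, minus strand: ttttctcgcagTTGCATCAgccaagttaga
NARS1, chr18:57621804-57621833, minus strand: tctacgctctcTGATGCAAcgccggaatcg
YARS2, chr12:32756076-32756105, minus strand: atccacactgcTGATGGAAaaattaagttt
Of these 8 genes, 7 are cytosolic and 1, YARS2, is mitochondrial. In 6 of them the match stands on the strand opposite to the gene, so that it is printed as its reverse complement, and in 5 of those 6 it reads TTGCATCA. Counted from the RefSeq start, its first base stood between positions -33 and 14 in TARS1, GARS1, CARS1, IARS1, MARS1 and NARS1, at -187 in AARS1 and at -197 in YARS2.

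A gene was called open in a library when a deposited peak, referred to below as a region, overlapped by at least 1 bp the 1000 bp on either side of its first or last annotated base. List length varied widely, at 188516, 248900, 55533 and 53063 regions for stressed libraries 6 to 9, and 53398, 32828 and 159902 regions for vehicle libraries 6 to 8. The lists were therefore also compared at an equal length, the 32828 regions of highest fold enrichment in each library. The background recovered from the folds, a measure of relative depth, was 2.18, 5.99, 0.816 and 1.5 fragments in the stressed libraries and 0.492, 0.611 and 1.43 fragments in the vehicle libraries. The cell type label was checked against markers. In the equal-size lists 3 of 6 dopaminergic markers were open in each stressed library and 2 to 3 in the vehicle libraries, with NR4A2 and RET open in all 7, SLC6A3 in all but vehicle library 6, and TH, SLC18A2 and DDC in none. Of 6 neuronal markers, 5 were open in each stressed library and 4 to 5 in the vehicle libraries, with RBFOX3 open in none. Of 5 glial markers, 2 to 3 were open in stressed and 1 to 2 in vehicle libraries, with OLIG2 open in all 7 and MBP in all but vehicle library 6. AQP4 was open in 2 stressed and 0 vehicle libraries, and GFAP and SOX10 in none. Of 5 mesenchymal and endothelial markers, 3 to 4 were open in stressed and 1 to 2 in vehicle libraries. TWIST1 was open in all 7, PRRX1 in 4 stressed and 2 vehicle libraries, and PECAM1 in none. PDGFRB was open in 4 stressed and 0 vehicle libraries, and COL1A1 in 3 stressed and 0 vehicle libraries. In the deposited lists PDGFRB was open in 4 stressed and 2 vehicle libraries, and COL1A1 in 3 stressed and 1 vehicle libraries. Those lists also had TH open in 3 stressed and 0 vehicle libraries, SLC18A2 in 4 and 1, and DDC in 1 and 0. Some glial and mesenchymal markers were thus open beside the neuronal ones, while GFAP, SOX10 and PECAM1 had no region in the equal-size lists. A region at a gene end does not show expression, so the markers do not settle which cells were present. PDGFRB and COL1A1 differed between treatments in the equal-size lists, and less so in the deposited lists, where TH and SLC18A2 differed too. The part of depth, and of cells other than neurons, in the results below was not tested. In bulk chromatin a site open in fewer cells and a site less open in each cell cannot be told apart.

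Nearly all synthetase genes were open in every library, with or without mitochondrial stress. In the deposited lists, 35, 35, 33 and 35 of the 35 genes were open in stressed libraries 6 to 9, and 32, 32 and 35 in vehicle libraries 6 to 8. The means were 34.5 ± 1.0 in stressed libraries (SD, n = 4) and 33.0 ± 1.73 in vehicle libraries (SD, n = 3), and the difference of 1.5 genes was smaller than the spread between vehicle libraries. In the equal-size lists the numbers were 34, 34, 33 and 33 in stressed libraries, and 32, 32 and 34 in vehicle libraries. These gave 33.5 ± 0.577 in stressed libraries and 32.7 ± 1.15 in vehicle libraries, a difference of 0.833 genes. In the deposited lists the 3 libraries with fewer than 35 open synthetase genes were stressed 8, vehicle 6 and vehicle 7, which also had the 3 lowest backgrounds. Their part in the difference was not tested.

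In both kinds of list 30 of the 35 genes, 85.7%, were open in all 7 libraries, against 49.8% of all protein-coding genes in the deposited lists and 46.5% in the equal-size lists. No synthetase gene was closed throughout, a state shared by 16.0% of all genes in the deposited lists and 29.6% in the equal-size lists. None was open in all 4 stressed and no vehicle library, a pattern of 0.11% of all genes in the deposited lists and 0.576% in the equal-size lists. None showed the opposite, open in no stressed and all 3 vehicle libraries, which 0.0% of all genes did in the deposited lists and 0.015% in the equal-size lists. In the deposited lists 5 genes were open in a larger share of stressed libraries (14.3%), against 29.4% of all genes, and 0 in a larger share of vehicle libraries, against 4.82%. In the equal-size lists the numbers were 3 toward stressed libraries (8.57%), against 19.3% of all genes, and 2 toward vehicle libraries (5.71%), against 4.56%. The share toward stressed libraries was thus below the background in both kinds of list. The remaining 30 genes were open in all 7 libraries in each, and a gene open in all 7 cannot lean. The shares therefore also reflect how many genes were open throughout. Among all genes 5880 leaned to stressed and 962 to vehicle libraries in the deposited lists, and 3860 and 911 in the equal-size lists.

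**Figure D1:**
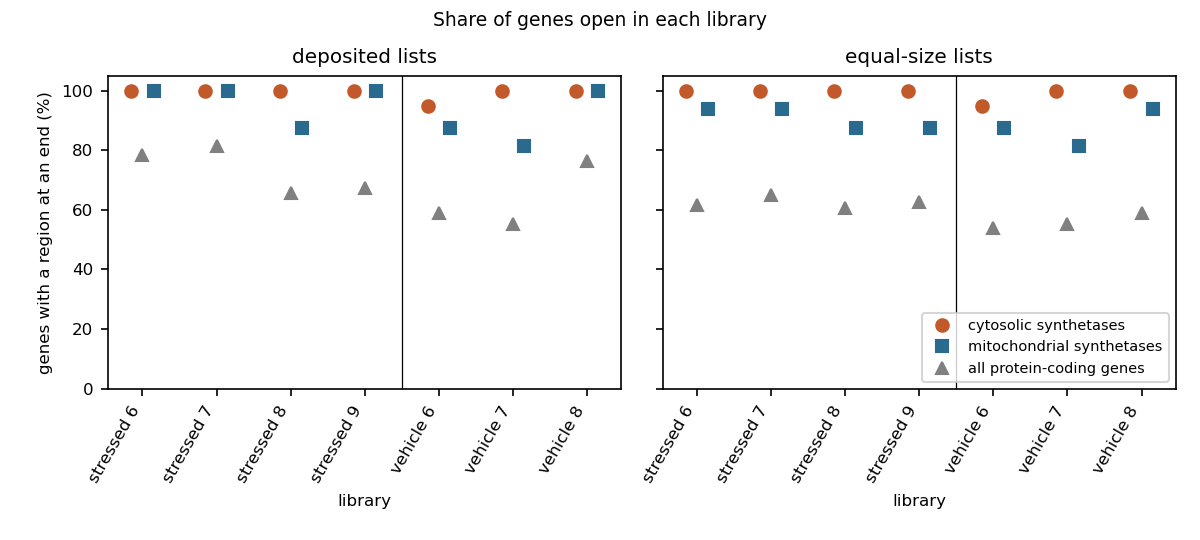
The percentage of genes open at a gene end (y axis) in each library (x axis; stressed libraries left of the line, vehicle libraries right of it), in the deposited lists on the left and the equal-size lists on the right. Circles are the 19 cytosolic synthetase genes, squares the 16 mitochondrial ones and triangles all 19974 protein-coding genes, and both synthetase groups lie above all genes in every library.

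At gene ends more cytosolic than mitochondrial synthetase genes were open throughout, a difference that was not tested. It was not seen among the genes with a RefSeq promoter, which are a smaller set. All 19 cytosolic genes were open in each stressed library, and 18, 19 and 19 in the vehicle libraries, with the same numbers in both kinds of list. That gave 19.0 ± 0 in stressed and 18.7 ± 0.577 in vehicle libraries, and 18 of 19 (94.7%) open in all 7. Of the 16 mitochondrial genes, 16, 16, 14 and 16 were open in stressed libraries and 14, 13 and 16 in vehicle libraries in the deposited lists. The equal-size lists had 15, 15, 14 and 14 in stressed libraries and 14, 13 and 15 in vehicle libraries. The mitochondrial means in the equal-size lists were 14.5 ± 0.577 in stressed and 14.0 ± 1.0 in vehicle libraries, and 12 of 16 (75.0%) were open in all 7. At the 300-base promoters 17 of 21 cytosolic (81.0%) and 17 of 18 mitochondrial ones (94.4%) were open in all 7 equal-size lists. Counted by gene, 15 of 16 cytosolic and 13 of 14 mitochondrial genes had an open promoter in all 7. Those promoter numbers leave out LARS1, VARS1 and YARS1, which were open at their ends in all 7. They also leave out AARS2 and VARS2, which were not, so gene ends and promoters were compared over different genes. With a −log10 q of at least 5 the gene-end numbers were 14 of 19 cytosolic and 12 of 16 mitochondrial genes. Of the 5 genes not open throughout at their ends, 1 was cytosolic (FARSA) and 4 were mitochondrial (AARS2, LARS2, FARS2 and VARS2). By enzyme architecture, 17 of 19 class I genes and 13 of 16 class II genes were open in all 7 equal-size lists. All 7 genes whose products form the cytosolic multisynthetase complex (EPRS1, IARS1, KARS1, LARS1, MARS1, QARS1 and RARS1) were open in all 7, as were all 13 cytosolic genes known to depend on ATF4.

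The strength of each gene's best region was followed by its rank in the equal-size list, where rank 1 is the highest fold enrichment in that library and a gene with no region takes the rank after the last, 32829. The median mitochondrial gene had a stronger region than the median cytosolic gene. The median rank was 5400, 5483, 5043 and 5943 for cytosolic genes in stressed libraries 6 to 9, and 8769, 6689 and 7515 in vehicle libraries 6 to 8. It was 4014, 3646, 4140 and 3806 for mitochondrial genes in stressed libraries, and 4158, 5004 and 4286 in vehicle libraries. The mitochondrial median thus stood nearer the top in each of the 7 libraries. Over all protein-coding genes the medians ran from 14632 to 18084 in stressed and from 20825 to 25192 in vehicle libraries, so stressed and vehicle medians did not overlap over all genes either.

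**Figure D2:**
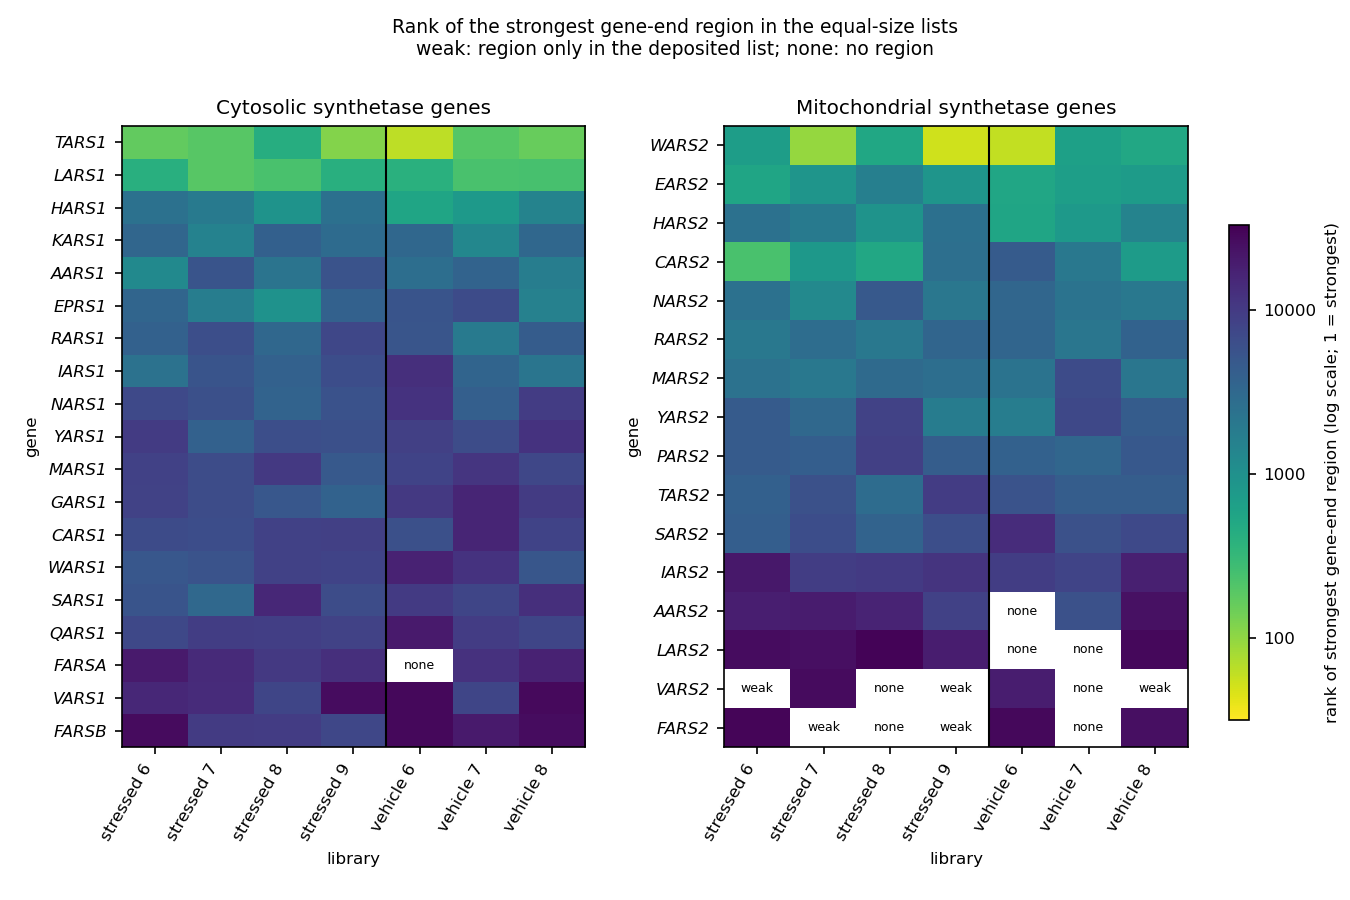
Each cell gives the rank of the strongest gene-end region of a gene (rows) in a library (columns, stressed left of the line and vehicle right of it) on a log colour scale, yellow for the top of the list. TARS1, LARS1 and WARS2 ranked between 52 and 687 in every library, and the cells without a region belong to FARSA, AARS2, LARS2, VARS2 and FARS2.

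TARS1, LARS1 and WARS2 had the highest mean ranks among the synthetase genes. TARS1, the cytosolic threonine enzyme, ranked 167, 194, 429 and 116 in stressed libraries, and 64, 199 and 158 in vehicle libraries. Its deposited folds were 66.7, 43.7, 18.7 and 25.2 in stressed libraries, and 41.6, 22.3 and 66.6 in vehicle libraries. The 2 treatments overlapped on both measures. LARS1, the leucine enzyme of the multisynthetase complex and a leucine sensor for mTORC1, ranked 408, 191, 231 and 411 in stressed libraries, and 402, 233 and 239 in vehicle libraries. WARS2, which charges mitochondrial tryptophan tRNA, ranked 687, 96, 522 and 52 in stressed libraries, and 60, 636 and 510 in vehicle libraries. Both genes spanned nearly the same range with and without the inhibitors, and exact permutation tests gave adjusted p = 0.782 for TARS1, 0.996 for LARS1 and 1.0 for WARS2.

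The whole TARS1 promoter at the more downstream of its 2 RefSeq starts is shown because it lay under one of the strongest regions of the family and holds the element core, again in capitals, just after the start site. It is chr5:33440715-33441014 on the plus strand.
TARS1 promoter: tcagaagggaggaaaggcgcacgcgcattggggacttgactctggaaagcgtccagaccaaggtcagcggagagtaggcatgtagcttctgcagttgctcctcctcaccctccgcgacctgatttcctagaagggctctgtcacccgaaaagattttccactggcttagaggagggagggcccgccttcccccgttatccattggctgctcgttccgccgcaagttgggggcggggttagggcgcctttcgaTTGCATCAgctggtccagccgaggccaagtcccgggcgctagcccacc
The RefSeq starts of TARS1 lie 269 bp apart, and its summits stood 188 to 295 bp inside the gene's first base in all 7 libraries, around the downstream start.

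At the other end of the order, among genes open in all 7 libraries, were FARSB, VARS1 and IARS2. FARSB, the beta subunit of the cytosolic phenylalanine enzyme, ranked 26749, 9791, 9513 and 7416 in stressed libraries, and 28065, 19699 and 26422 in vehicle libraries. Stressed library 6 lay inside the vehicle range and the other 3 stressed libraries nearer the top, with adjusted p = 0.579 by the exact permutation test. VARS1, the cytosolic valine enzyme, ranked 15031, 14131, 7595 and 25894 in stressed libraries, and 28271, 7733 and 27843 in vehicle libraries. IARS2, the mitochondrial isoleucine enzyme, ranked 21226, 9398, 10164 and 11607 in stressed libraries, and 9366, 7904 and 17884 in vehicle libraries. Both of these overlapped across treatments.

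The genes not open throughout mostly ranked below the synthetase median where they were open, and AARS2 reached it in 1 library. FARSA, the alpha subunit that pairs with FARSB, was open in 4 of 4 stressed and 2 of 3 vehicle libraries. It ranked 19620, 14214, 10439 and 12704 in stressed libraries, and 12324 and 17033 in vehicle libraries 7 and 8, with no region in vehicle library 6. AARS2, the mitochondrial alanine enzyme, showed the same 4 of 4 and 2 of 3. Its ranks were 18234, 19134, 16314 and 8661 in stressed libraries, and 5870 and 24229 in vehicle libraries 7 and 8, where 5870 equals the synthetase median of vehicle library 7. For both genes the vehicle libraries with a region fell within or beyond the stressed range, and vehicle library 6, the one without, had the lowest background of the 7.

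LARS2, the mitochondrial leucine enzyme, had the most uneven presence. It was open in 4 of 4 stressed libraries, at ranks 25864, 24974, 30343 and 18949, and in 1 of 3 vehicle libraries, at rank 28512 in vehicle library 8. The deposited folds were 10.4, 7.29, 4.41 and 6.0 in stressed libraries and 9.86 in vehicle library 8. All 5 ranks lay in the lower part of the equal-size lists, and 4.41 was the lowest fold in the equal-size list of stressed library 8. In the deposited list of that library 9516 regions shared this fold, some of them beyond the limit. The 2 vehicle libraries without a region were those of lowest background. Fisher's exact test on presence gave p = 0.143, adjusted p = 0.763, and the exact permutation test on rank p = 0.0857, adjusted p = 0.529.

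VARS2, the mitochondrial valine enzyme, was open in 3 of 4 stressed and 2 of 3 vehicle deposited lists, and in 1 of 4 and 1 of 3 equal-size lists. Ranked in the deposited lists, it stood at 33742, 26487 and 33015 in stressed libraries 6, 7 and 9, and at 19055 and 90060 in vehicle libraries 6 and 8. Its region lay at an end shared with GTF2H4, a subunit of the transcription factor TFIIH, in all 5 libraries that had one. FARS2, the single-chain mitochondrial phenylalanine enzyme, was open in 3 of 4 stressed and 2 of 3 vehicle deposited lists. The equal-size lists kept it in 1 of 4 stressed and 2 of 3 vehicle libraries. Ranked in the deposited lists, it stood at 29516, 46495 and 38112 in stressed libraries 6, 7 and 9, and at 28468 and 24946 in vehicle libraries 6 and 8. Every one of those regions stood at the far end of the gene, with summits 551 to 992 bp past its last base. The 2 RefSeq starts of FARS2 lie 11073 and 11579 bp inside its first annotated base. The promoters there were open in all 7 equal-size lists, at ranks 17527, 5931, 8263 and 13825 in stressed libraries, and 9966, 12655 and 13667 in vehicle libraries. For FARS2 the gene-end window therefore missed the promoter, and its partial presence described another site.

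Across treatments no gene in the genome passed the threshold of 0.05 after adjustment. Of 4771 genes open in 1 to 6 equal-size lists, Fisher's exact test called 0, with 118 at unadjusted p under 0.05 and a smallest adjusted p of 0.763. Of 14055 genes open in at least 1 list, the exact permutation test on rank called 0, with 1016 at unadjusted p under 0.05 and a smallest adjusted p of 0.395. With 4 against 3 libraries the smallest p possible is 0.0286. At that floor an adjusted p under 0.05 needs most of the tested genes to reach it together. The 0 adjusted calls were thus nearly fixed by the design and say little about any single gene. The unadjusted calls leaned to stronger regions in stressed libraries, 931 against 85, and 70.7% of all tested genes had their mean rank nearer the top there. The median difference in mean rank, stressed minus vehicle, was -1307 over all genes.

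Among synthetase genes the lean was less frequent than over all genes, with a similar median difference. Mean rank was nearer the top in stressed libraries for 20 of 35 (57.1%, against 70.7% of all genes), and the median difference was -1199, against -1307. The median of their mean ranks was 5198, against 10816 over all tested genes, so they had less room to move toward the top. Of the 19 cytosolic genes 13 leaned that way, with a median difference of -2398, and of the 16 mitochondrial genes 7, with a median difference of 30.33. Among the 13 ATF4-dependent genes 10 leaned to stressed libraries (76.9%), and among the other 6 cytosolic genes 3 did. Among the 7 genes of the multisynthetase complex 4 did. The median difference was -2398 in the ATF4-dependent group and -1782 in the other 6 cytosolic genes. Both lay further toward stressed libraries than the -1307 over all genes. The median ranks of the ATF4-dependent group were 5043 to 5674 in stressed and 6689 to 8769 in vehicle libraries. They did not overlap, as those of all genes did not, while those of the 35 synthetase genes together did. The contrasts with all genes were not tested.

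**Figure D3:**
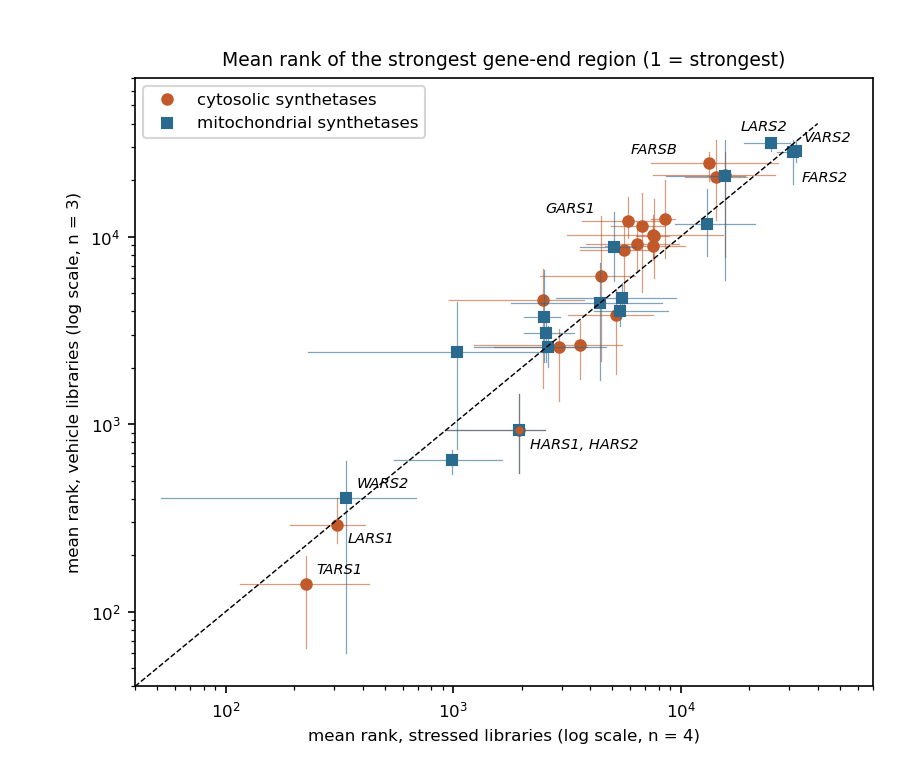
Mean rank of each synthetase gene in vehicle libraries (y axis, n = 3) against its mean rank in stressed libraries (x axis, n = 4), both on log scales, with lines from the lowest to the highest library and a dashed line of equal rank. Circles are cytosolic and squares mitochondrial genes, HARS1 and HARS2 share 1 point, and GARS1 stands above the dashed line, nearer the top of the list in stressed libraries.

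GARS1, the glycine enzyme of both compartments, was the 1 synthetase gene whose ranks did not overlap between treatments. It ranked 8263, 6535, 5043 and 3693 in stressed libraries, and 10377, 16152 and 9791 in vehicle libraries. The means were 5884 ± 1966 in stressed libraries (SD, n = 4) and 12107 ± 3516 in vehicle libraries (SD, n = 3), with exact permutation p = 0.0286 and adjusted p = 0.395. That is 1 of 35 genes at the smallest p the design allows toward stressed libraries, against 6.62% of all tested genes, and 0 of 35 toward vehicle libraries, against 0.605%. Its enrichment over the recovered background overlapped, at 30.7, 20.0, 22.1 and 19.4 in stressed libraries and 24.4, 13.1 and 32.1 in vehicle libraries. The GARS1 result thus rests on the rank within each list. It did not pass the adjusted threshold, which a single gene could not pass under this design.

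The GARS1 promoter at its downstream RefSeq start, 143 bp inside the gene, carries the element core on the opposite strand, in capitals. It is chr7:30594628-30594927 on the plus strand and was overlapped by a region in all 7 libraries.
GARS1 promoter: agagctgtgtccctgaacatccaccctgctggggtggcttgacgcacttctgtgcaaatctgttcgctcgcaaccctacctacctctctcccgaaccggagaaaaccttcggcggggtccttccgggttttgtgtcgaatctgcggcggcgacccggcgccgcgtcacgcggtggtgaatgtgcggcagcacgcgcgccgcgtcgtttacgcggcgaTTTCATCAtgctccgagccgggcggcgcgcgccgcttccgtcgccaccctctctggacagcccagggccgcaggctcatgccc
The upstream GARS1 promoter was overlapped in 4 of 4 stressed libraries and 2 of 3 vehicle libraries. The exception was vehicle library 7, which had the shortest list.

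Other cytosolic genes of the ATF4-dependent group showed wide and overlapping ranks; they are named here with their values in view. SARS1, the serine enzyme, ranked 5400, 3151, 15335 and 6449 in stressed libraries, and 10000, 7692 and 13020 in vehicle libraries. WARS1, the tryptophan enzyme, ranked 4923, 5483, 8509 and 8059 in stressed libraries, and 16995, 12001 and 5072 in vehicle libraries. CARS1, the cysteine enzyme, ranked 6720, 6380, 8503 and 8866 in stressed libraries, and 6044, 15917 and 8086 in vehicle libraries. In each, at least 1 vehicle library stood within the stressed range, and adjusted p by the exact permutation test was 0.823 for SARS1, 0.629 for WARS1 and 0.887 for CARS1.

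Within the promoters the element core stood mainly in the ATF4-dependent group. TGATGNAA, searched on both strands, occurred in 8 of 30 synthetase genes, against 3.6% of 15812 genes with a RefSeq promoter. It occurred in 7 of 16 cytosolic and 1 of 14 mitochondrial genes. All 7 cytosolic genes were among the 10 ATF4-dependent genes with a promoter, and none of the 6 other cytosolic genes had a match. The group and the element are not independent, since such elements are part of how ATF4 targets came to be known. The promoters with these 8 matches were overlapped by a region in all 7 equal-size lists, stressed and vehicle alike. Among all promoters open in all 7 the core was found in 1.32%, against 2.7% of 22132 promoters. The full cyclic AMP response element, TGACGTCA, which reads the same on both strands, occurred in 0 synthetase promoters and in 2.26% of all. The CCAAT box, CCAAT on either strand, occurred in 16 of 30 synthetase genes and in 42.1% of all genes. No match to one motif overlapped a match to another. A match is a run of letters in a 300-base window and shows no binding.

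Most of the strongest regions stood at the first annotated base of the gene, called its start here. For CARS2 and FARS2 the RefSeq starts lie further inside the gene, so this position is not their promoter. For the 30 genes whose strand was known, 199 of 205 strongest regions lay at the start of the gene and 6 at its far end. Of those 199, 183 had their summit within 250 bp of the first base (92.0%) and 125 within 100 bp, and the median distance was 73 bp. At 5 of them the summit stood over 1000 bp away, in CARS2, SARS1 and MARS2. SARS1 had summits at 1081 bp in stressed library 6 and 995 bp in stressed library 9, and between -58 and 120 bp in the other 5 libraries. AARS1, the alanine enzyme, had its strongest region at the start in 6 libraries and at the far end in stressed library 9.

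**Figure D4:**
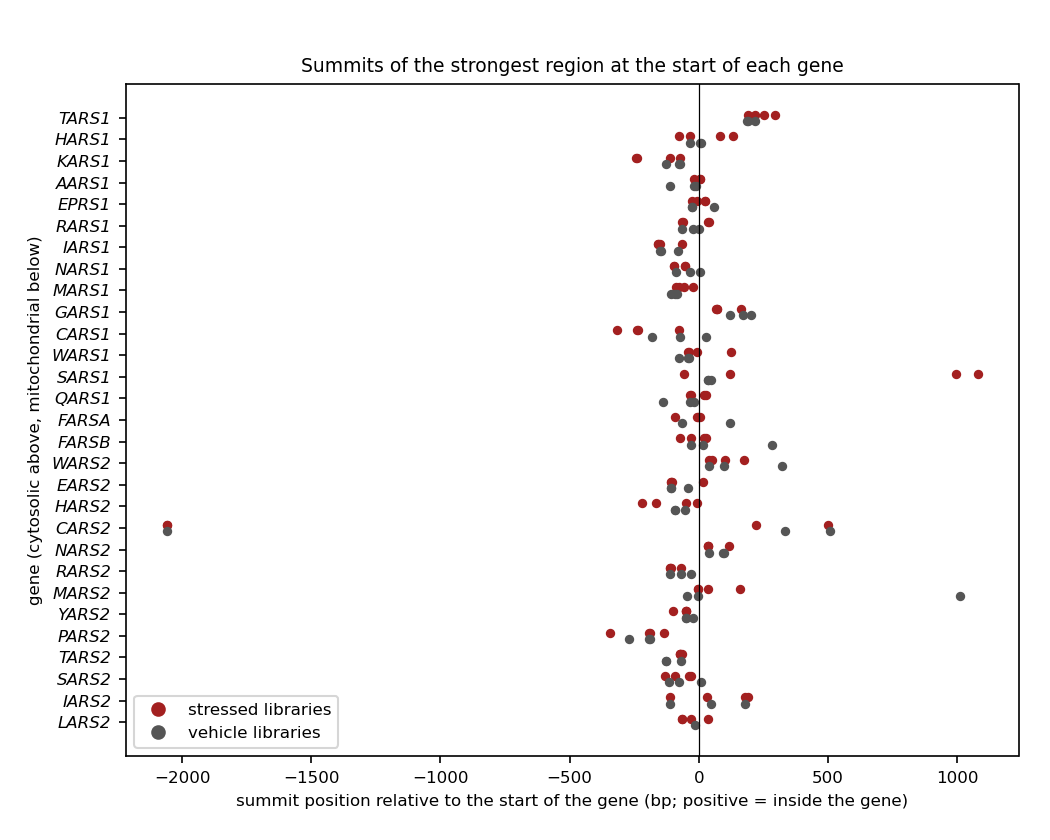
Distance in bp from each gene's first base to the summit of its strongest region (x axis; positive inside the gene), 1 row per gene with cytosolic genes above and mitochondrial genes below, red for stressed and grey for vehicle libraries. Of the 199 summits, 183 lie within 250 bp of the first base in either treatment, and CARS2, SARS1 and MARS2 hold those beyond 1000 bp.

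Some of these regions were shared with the end of another gene. In 11 of the 35 genes the strongest region overlapped a window at either end of a neighbour in every library in which it was open. The share over all protein-coding genes was not computed, so this number is not read as a trait of the family. The neighbours included TERF2IP, a telomere protein gene, beside KARS1, MRPS12, a mitochondrial ribosomal protein gene, beside SARS2, ORC3, of the origin recognition complex, beside RARS2, and ING1 beside CARS2. For these genes openness cannot be assigned to the synthetase alone. CARS2, the mitochondrial cysteine enzyme, had such a region at its first annotated base, while its RefSeq starts lie 7007 and 7406 bp further in. The region over those starts was open in all 7 equal-size lists, at ranks 3599, 5403, 5625 and 8327 in stressed libraries, and 7733, 2994 and 2886 in vehicle libraries.

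HARS1 and HARS2, the cytosolic and mitochondrial histidine enzymes, were the pair that joined both compartments in 1 promoter. Their start sites face away from each other on chromosome 5, 85 bp apart, at 140691370 for HARS1 and 140691455 for HARS2. The promoter of HARS1, chr5:140691321-140691620 on the minus strand, is shown because 1 region covered both starts in all 7 libraries, and the capitals mark the 86 bases between and including the 2 start sites.
HARS1 promoter: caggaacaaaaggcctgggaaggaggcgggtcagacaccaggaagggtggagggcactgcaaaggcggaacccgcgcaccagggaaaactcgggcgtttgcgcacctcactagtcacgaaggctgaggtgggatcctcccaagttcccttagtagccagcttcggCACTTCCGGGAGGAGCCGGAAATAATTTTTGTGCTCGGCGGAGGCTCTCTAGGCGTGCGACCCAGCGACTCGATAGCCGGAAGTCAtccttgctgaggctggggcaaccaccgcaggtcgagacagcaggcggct
The shared region ranked 2453, 1890, 918 and 2545 in stressed libraries, and 548, 780 and 1450 in vehicle libraries. Stressed library 8 lay inside the vehicle range and the other 3 stressed libraries below it in the list, with p = 0.114 and adjusted p = 0.579 by the exact permutation test. The pair is 1 measurement and is counted once for each gene in the numbers above.

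Synthetase promoters resembled other promoters in median base composition, but fewer of them were poor in CG pairs. The 39 promoters had a median of 23 CG pairs (range 3 to 43) and 62.0% G or C, against a median of 21 CG pairs and 62.3% over all 22132 promoters. With 0 to 9 CG pairs there were 3 of the 39, against 6626 of all promoters, and with 20 to 29 there were 18, against 5294. Of the 39, 34 (87.2%) were open in all 7 equal-size lists, against 41.0% of all promoters, shares that were not matched for CG pairs. Across all promoters that share was 4.51% with 0 to 9 CG pairs, 41.3% with 10 to 19, 64.4% with 20 to 29 and 59.2% with 30 or more. The synthetase promoters were open in all 7 in 1 of 3, 8 of 9, 16 of 18 and 9 of 9 of the same classes.

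**Figure D5:**
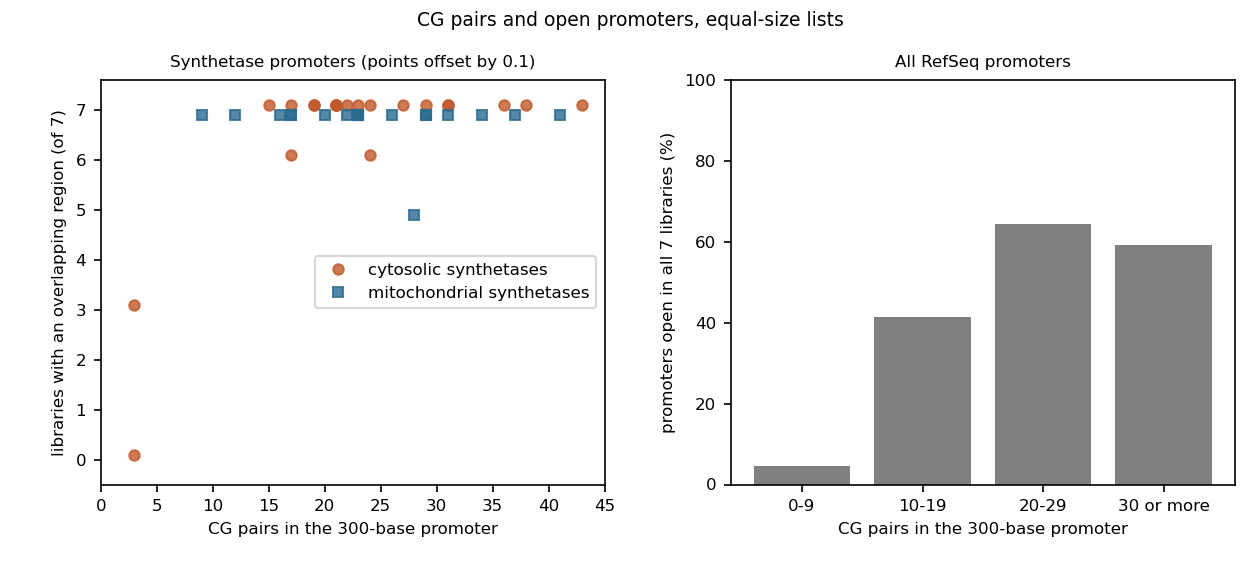
On the left, the number of libraries with a region over each synthetase promoter (y axis, of 7, points offset by 0.1 to separate the groups) against its number of CG pairs in 300 bases (x axis), circles for cytosolic and squares for mitochondrial genes. On the right, the percentage of all RefSeq promoters open in all 7 libraries (y axis) by number of CG pairs (x axis); the 2 synthetase promoters with 3 CG pairs were open in 3 and 0 libraries.

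CARS1 shows both kinds of promoter in 1 gene. Its upstream promoter, chr11:3057374-3057673 on the minus strand, has 31 CG pairs and was open in all 7 libraries. Its downstream promoter, chr11:3040935-3041234 on the minus strand, 16439 bp inside the gene, has 3 CG pairs and was open in none, in either kind of list. Capitals mark the CG pairs.
CARS1 upstream promoter: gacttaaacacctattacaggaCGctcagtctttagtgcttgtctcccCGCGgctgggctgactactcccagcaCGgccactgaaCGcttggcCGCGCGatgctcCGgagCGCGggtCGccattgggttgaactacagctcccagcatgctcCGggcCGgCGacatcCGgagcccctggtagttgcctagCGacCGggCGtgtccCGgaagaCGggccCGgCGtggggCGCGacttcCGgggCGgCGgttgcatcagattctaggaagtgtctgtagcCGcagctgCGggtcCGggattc
CARS1 downstream promoter: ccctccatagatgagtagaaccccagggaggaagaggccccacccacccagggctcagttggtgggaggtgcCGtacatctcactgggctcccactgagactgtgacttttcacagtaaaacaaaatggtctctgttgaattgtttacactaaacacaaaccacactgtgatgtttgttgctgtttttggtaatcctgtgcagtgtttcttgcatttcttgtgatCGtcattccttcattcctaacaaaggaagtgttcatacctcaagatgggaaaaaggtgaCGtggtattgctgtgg
The second WARS1 promoter, 980 bp inside that gene, also has 3 CG pairs and was open in 2 of 4 stressed and 1 of 3 vehicle libraries.

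Around the genes, regions of the 7 equal-size lists were merged into 62507 regions, of which 90 lay within 10000 bp of a synthetase gene. Of these 90, 50 (55.6%) were found in all 7 libraries, against 22.9% of all merged regions. None was in all stressed and no vehicle libraries, against 0.781% of all, and none in no stressed and all vehicle libraries, against 0.37%. In all, 21 (23.3%) were in a larger share of stressed libraries, against 39.6% of all, and 19 (21.1%) in a larger share of vehicle libraries, against 37.4%. A region in all 7 libraries cannot lean, and among all merged regions 24778 leaned to stressed and 23398 to vehicle libraries. Gene-end regions were the steadiest, with 31 of 40 in all 7 libraries, followed by 12 of 20 in the flanks and 7 of 30 in gene bodies.

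Apart from the LARS2 promoter described above, 4 of these regions differed most in share, 3 toward stressed libraries and 1 toward vehicle libraries. One in the body of CARS1, chr11:3049328-3052443, was in 4 of 4 stressed and 1 of 3 vehicle equal-size lists, and in 4 and 2 deposited lists. A region by the left end of YARS1, chr1:32769954-32774696, had the same numbers. One in the body of CARS2, chr13:110702328-110703582, was in 3 of 4 stressed and 0 of 3 vehicle equal-size lists, and in 4 and 1 deposited lists. One in the body of FARS2, chr6:5636392-5637411, ran the other way, in 1 of 4 stressed and 3 of 3 vehicle equal-size lists, and was in all 7 deposited lists. Its ranks there were 36300, 19081, 41450 and 38511 in stressed libraries, and 28441, 31701 and 25325 in vehicle libraries. These 4 were singled out after their values were seen.

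Most other genes of tRNA charging and delivery were open throughout. Of 12 partners of charging, 10 were open in all 7 equal-size lists. AIMP1, a scaffold of the multisynthetase complex, ranked 267, 136, 535 and 353 in stressed libraries, and 315, 92 and 192 in vehicle libraries, as near the top as TARS1 and LARS1. The exceptions were MTFMT, which formylates the mitochondrial initiator methionyl-tRNA, and AARSD1, which clears mischarged alanine tRNA, each in 2 of 4 stressed and 1 of 3 vehicle libraries. Of 10 elongation factors, 7 were open in all 7. EEF1A2, the neuronal and muscle form of the factor that carries charged tRNA to the ribosome, was open in 2 of 4 stressed and 1 of 3 vehicle libraries. EEF1D, a subunit of its exchange factor, was open in 4 of 4 and 1 of 3, and EEF2, the translocase, in none. EEF2 was open in 3 of 4 stressed and 1 of 3 vehicle deposited lists. The element core was found in 0 of 10 partners and 0 of 8 elongation factors with a RefSeq promoter.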

How the data were processed

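The 35 genes, the gene lists and the comparisons were chosen with earlier results of these data known. Per the labels' protocols, nuclei were released with detergent, treated with Tn5 and amplified by PCR. FastQC, Bowtie2, Picard and hg38 are named, without versions, in the submitters' processing notes. Per the file headers, MACS2 called peaks separately for each library, and replicates were not pooled. For its settings, and any shift for Tn5, nothing is stated in the labels or headers, and they could change region number and width. Each deposited peak has a score, a fold enrichment (a ratio at the summit), a −log10 p-value and a −log10 q-value, as the authors' caller made them. A fold belongs to 1 peak of 1 library, so it served to rank regions within a list.

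Between 29 and 54 peaks per library lay outside chromosomes 1 to 22 and X and were dropped. Gene ends came from RefSeq GRCh38.p14. Equal-size lists were ordered by fold, then −log10 p, then width, and 1133 to 9516 regions per library were tied in fold at the limit. With a tolerance of 0.02, 100% of deposited folds equalled (pileup + 1)/(background + 1) with 1 background per library, from which relative depth was recovered. Read totals are unknown, so no counting interval could be set. Presence was tested by Fisher's exact test, and rank by an exact two-sided permutation test over the 35 assignments of libraries, both with Benjamini-Hochberg adjustment over all genes tested. Lists received numbers and medians without a test. The steps were tested on simulated data. Per-library values are given for genes not open throughout, and, among those open in all 7 equal-size lists, for the 3 of highest and 3 of lowest mean rank. GARS1, HARS1, HARS2, SARS1, WARS1, CARS1, CARS2, AARS1 and AIMP1 were named after their values were seen. Python 3.11.15, numpy 2.4.6, pandas 2.3.3, scipy 1.17.1 and bedtools 2.31.1 were used.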

Additional observations from a re-analysis of the deposited data

Results flagged for a closer look

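In 3 of the 15 sets of stressed libraries examined, 1 library stood apart from the other 3. The rule marks about 5% of sets of 4 by chance only where values are continuous and independent. The numbers of open genes below are tied in 3 libraries, where the rule marks any gap, and the mitochondrial number is part of the total. The 3 flags are therefore not set against that rate. The number of synthetase genes open in the deposited lists was 33 in stressed library 8 and 35 in each of the other 3. The number of mitochondrial synthetase genes open was 14 in stressed library 8 and 16 in each of the other 3, which is the same shortfall seen in FARS2 and VARS2. The rank of FARSB was 26749 in stressed library 6, against 9791, 9513 and 7416 in the other stressed libraries. Stressed library 8 had the lowest background of the stressed libraries, 0.816 fragments, and the part of depth was not tested.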

How the results depend on the processing

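The alternatives changed the window, the ranking, the list length, the threshold and the libraries. Apart from leaving out libraries, 62 values kept their direction and stayed within the spread between libraries (numbers of leaning genes, within 1.5 times), 9 moved and 1 reversed. The 62 include the adjusted calls over all genes, which the design nearly fixed at 0. They also include the ranking by −log10 p, which repeated every main value. Both say little on stability. Small differences shrank within that spread, to 0.167 for all synthetase genes in equal-size lists with the summit required inside the window, and to 0.0833 for cytosolic genes with a window of 500 bp. Values are stressed minus vehicle numbers of open genes. Shorter lists, of 16414 regions, gave 2.5 for all synthetase genes and 2.25 for cytosolic ones, with 7 genes in a larger share of stressed and 0 in a larger share of vehicle libraries. A −log10 q of at least 5 gave 3.08 for all and 2.0 for cytosolic genes in the deposited lists, where CARS1, FARSB, GARS1 and VARS1 lost vehicle libraries. With the summit required inside the window, the cytosolic difference in equal-size lists reversed to -0.167 and 5 genes leaned to vehicle. With start sites only, 0 leaned to vehicle. The causes were not tested. Adjusted calls over all genes stayed at 0 in every alternative run, a result that the smallest possible p made nearly certain. Without any 1 library, and with the replicate block, the design could not give an unadjusted p under 0.05, and 0 genes had one, so those runs say nothing on stability.

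Leaving out 1 library at a time gave 1.0 to 2.5 for all synthetase genes in deposited and 0.5 to 1.5 in equal-size lists. The range was 0 to 0.5 for cytosolic genes in both kinds of list, and for mitochondrial genes 0.5 to 2.0 in deposited and 0 to 1.0 in equal-size lists. Genes toward stressed libraries numbered 2 to 3 and toward vehicle 1 to 2, the lower number without stressed 6, stressed 8, stressed 9 or vehicle 6. The libraries share differentiation numbers, which the main comparisons did not use as pairs. Deviations of same-numbered libraries correlated at -0.0401, 0.00296 and -0.0957, and those of different-numbered libraries between -0.161 and 0.241. With so few libraries these values cannot show that pairing is absent. As a replicate block the differentiation numbers gave 1.0 in equal-size and 1.33 in deposited lists for all synthetase genes. They gave 1 gene toward vehicle and 0 adjusted calls, with a smallest possible p of 0.25. A gene without a region was not detected at that library's depth and is not shown to be closed.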
